A study of Homo sapiens with 8 samples.

Results

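The array described here compared PC3 cells transfected with miR-100-3p with mock PC3 cells. It is 1 of 8 samples of the series, chosen by its label, and each of the other 7 is also a single 2-colour array. PC3 is an established human prostate cancer cell line. The transfected RNA was labelled with Cy5 and the mock RNA with Cy3. The label calls the Cy3 sample mock and gives its transfection as none, so carrier, control oligonucleotide and miRNA cannot be told apart in this comparison. The miRNA was delivered with Lipofectamine RNAiMAX, and the duration of the transfection is not given in the labels. The other 3 PC3 arrays held miR-99a-3p, then the 5p strand of miR-150, then its 3p strand, each against mock in Cy3, and where 3 values are given for them they follow that order. The remaining arrays held FaDu and PANC-1 cells.

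A miRNA duplex yields a strand from each arm of its hairpin. A loaded strand pairs through its seed, bases 2 to 8 from the 5′ end, with matching stretches of messenger RNA, and paired transcripts usually become less abundant or less translated. miR-100-3p is the strand from the 3′ arm of the MIR100 hairpin, the one usually regarded as the passenger strand. Its mature sequence was taken from RefSeq (GRCh38.p14, chr11:122152240-122152261, minus strand), and the paralogous strand miR-99a-3p lies at chr21:16539138-16539159 on the plus strand. Both are shown because the results below turn on their seeds, which are in capitals.

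hsa-miR-100-3p: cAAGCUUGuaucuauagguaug
hsa-miR-99a-3p: cAAGCUCGcuucuaugggucug
hsa-miR-100-5p: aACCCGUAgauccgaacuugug

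Counted from the 5′ end, miR-100-3p and miR-99a-3p shared 17 of 22 bases. Of the 5 differences (U7C, U9C, A10U, A16G and A20C, with the miR-100-3p base first), 1 lies in the seed. The 5′ strand of the same hairpin, miR-100-5p, has an unrelated seed.

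Of 60901 gene spots, 173 carried an outlier flag and were left out, and none was saturated. The remaining spots covered 43316 gene names, of which 17060 were well above background in both channels and are called measured genes below. The Cy3 channel was well above background at 47.7% of spots and the Cy5 channel at 40.4%. A log2 ratio is that of Cy5 (miR-100-3p) over Cy3 (mock), so a negative value means a lower level in transfected cells. With 1 array there is no replicate and no test: genes are described as lower or higher by size alone, and the scanner software's error of a single spot, a median of 0.21 on the log2 scale, is given in place of a replicate SD. For 285 probes printed 5 or more times, the median SD between spots was 0.06. Both errors leave out the spread between cultures and the dye.

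The PC3 identity of the RNA was checked with fixed markers. All 9 genes of PC3 and epithelial tumour lines were measured, with KRT19 at a processed signal of 104794 in mock and 92007 in transfected cells, and VIM at 78400 and 61573. KLK3, which encodes prostate-specific antigen, was below background in both channels. Of 7 squamous genes only PKP1 was measured, and of 7 leukocyte and stromal genes COL1A1 and PECAM1 were.

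Across the measured genes the log2 ratio had a median of 0.01, and 48.3% of genes were below 0. A log2 ratio below −1, at least 2-fold lower, was found for 57 genes (0.334%), and a ratio above 1 for 161 genes (0.944%). No measured gene was below −2, whereas 7 were above 2. The median mock signal was 340 for the 57 lower genes and 49.7 for the 161 higher ones, against 468 for all measured genes, so the higher genes were mostly dim. A further 3174 genes were above background in Cy3 alone and 39 in Cy5 alone, and these have only a bound.

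The lowest gene was VAMP3, which encodes a SNARE protein of recycling endosomes. Its processed signal was 2644 in mock and 741 in transfected cells, a log2 ratio of −1.84 with a spot error of 0.26, or 3.57-fold lower. A second VAMP3 probe, at chr1:7837368-7838226 of hg19, gave −1.57, and the brighter probe lies at chr1:7840956-7841015. On the other 3 PC3 arrays VAMP3 was at 0.30, 0.28 and 0.24, all above 0. The other SNARE genes did not share it: of 22 measured members of the family, VAMP3 was the one below −1, and the family's median was −0.09.

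CTNNAL1, which encodes alpha-catulin, a relative of alpha-catenin, had signals of 7555 and 2682 and a log2 ratio of −1.49, and its other probe gave −1.53. IFIH1, the cytosolic sensor of double-stranded RNA also called MDA5, was at −1.77 with lower signals of 206 and 60.6. Its ratio on the miR-150-3p array was 2.29. OASL, an interferon-induced relative of the oligoadenylate synthetases, was at −1.26 here and at 1.42 on the miR-150-3p array.

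Several other genes in the lower tail stayed above −0.5 on each of the other 3 PC3 arrays. BLOC1S5, a subunit of a complex in lysosome-related organelle formation, was at −1.22, with −1.24 at its second probe. CASC4 (now GOLM2), a Golgi membrane protein, was at −1.19. TMEM30A, a chaperone of phospholipid flippases, was at −1.12, with −1.27 at a second probe. RBX1, the RING subunit of cullin ubiquitin ligases, was at −1.11 with signals of 8978 and 4155, and was at −0.07, 0.04 and 0.23 on the other 3 arrays. PDCD4, an inhibitor of translation initiation, was at −1.09, but its value of −0.499 with miR-99a-3p only just met this limit. Of 55 lower genes measured on all 4 arrays, 26 stayed above −0.5 on each of the other 3, and 3 were below −0.5 on each of them. Few probes of any kind were that low on those arrays. Among measured probes without the miR-100-3p seed match searched below, the shares under −0.5 were 14.43%, 5.70% and 12.03%. Staying above −0.5 was therefore common, and the 26 genes are not read as particular to miR-100-3p.

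Some low values rested on 1 probe among several. IL6ST, the signalling chain of interleukin-6 family receptors, was at −1.16 at the probe that was brightest over all 8 arrays and at 0.12 at the one brightest on this array, while its 5 measured probes ran from −1.16 to 0.12. PVRL3 (now NECTIN3), an adhesion molecule, was at −1.09 at one probe and at 0.40 at another. Of 13 lower genes with several measured probes, 11 were below 0 at every probe and 6 were below −1 at every probe.

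Probes that contain the letters pairing with the miR-100-3p seed were lower than the rest. The array's probes are 60 bases long and copy the transcript strand, so a probe that holds CAAGCTT carries a stretch complementary to bases 2 to 8. Of 58199 probes, 251 (0.431%) held it, and 102 of these were measured. Their median log2 ratio was −0.11, against 0.01 for the measured probes without it, and 66.7% were below 0 against 48.4%. A ratio below −0.5 was found for 13.7% of them and for 5.52% of the rest. This difference in medians was smaller than the error of a single spot.

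For the same letters the other 3 PC3 arrays gave medians of 0.01, 0.01 and −0.05, against 0.07, 0.03 and 0.03 without them. Extending the match to bases 1 to 8 (CAAGCTTG, 27 measured probes) gave a median of −0.24 on the miR-100-3p array, and −0.20 on the miR-150-3p array. Shortening it to bases 2 to 7 (AAGCTT, 414 measured probes) gave −0.10 on the miR-100-3p array, against 0.01 without these letters. On the other 3 arrays the shorter match gave 0.01, −0.04 and −0.01, against 0.07, 0.03 and 0.03 without it. The miR-99a-3p seed, which differs at base 7, was matched over bases 2 to 7 by GAGCTT. On the miR-100-3p array 383 measured probes with these letters had a median of −0.03, against 0.01 without them. Of these probes 55.9% were below 0, against 48.4% of the rest. On the miR-99a-3p array 380 probes with the letters had a median of −0.14, against 0.07 without them. Letters in a probe do not show a site used in cells, and transcript sequence outside the probes was not searched.

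**Figure D1:**
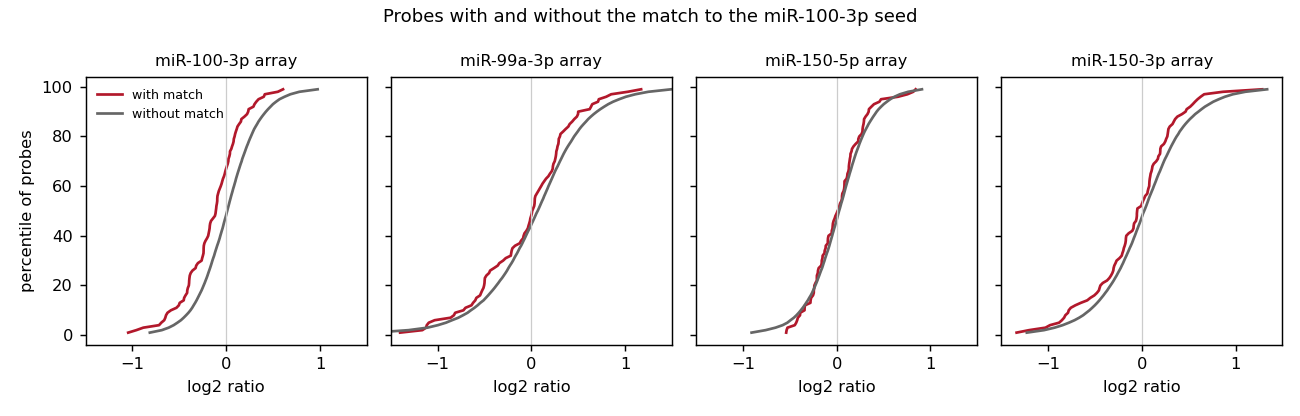
Each panel is 1 PC3 array and plots, for measured probes with (red) and without (grey) the 7 letters matching the miR-100-3p seed, the percentile (vertical) against the log2 ratio (horizontal). The red line lies left of the grey line through most of its range on the miR-100-3p array, where the medians were −0.11 and 0.01.

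The 6 measured probes that hold the match and had the lowest ratios are shown with up to 10 bases on each side, in capitals where they pair with the seed.

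MAGOHB: CAAGCTTaatggttatc
ANP32E: tCAAGCTTactgtattag
MAP3K13: cacaaaagtaCAAGCTTaaaggggcta
LOC101927196: tggtggatgaCAAGCTTgaatttccag
PAQR4: gccacatgagCAAGCTTgggtgctccc
HPS4: tttcttgaaaCAAGCTTcc

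MAGOHB, a core subunit of the exon junction complex, was at −1.14, at chr12:10758675-10758734 of hg19. On the other 3 arrays it was at −1.12, 0.15 and −0.17, so it was low with miR-99a-3p too. ANP32E, a chaperone that removes histone H2A.Z, was at −1.05 at the probe shown (chr1:150192675-150192734), and its other 2 probes gave −1.14 and −1.27. MAP3K13, a kinase of the JNK pathway, was at −0.96 at the probe shown, but its 3 measured probes ran from −1.03 to 0.56. LOC101927196, a long noncoding RNA, was at −0.89 with low signals of 87.1 and 47.1, and at 0.85, 0.40 and 0.11 on the other 3 arrays, and its level did not lie below all 4 PC3 mock channels. PAQR4 was at −0.72. HPS4, a factor in lysosome-related organelle formation, was at −0.69, and at 0.03, 0.16 and 0.11 on the other 3 arrays.

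Most genes of cell division were lower. Over the lists for DNA replication, mitotic regulators and kinetochores, 102 of 106 measured genes were below 0, against 48.3% of all genes, with a median of −0.51 and a range from −1.08 to 0.27. Below −0.5 were 54 of the 106, against 5.43% of all measured genes. Only TK1, the salvage kinase for thymidine, passed −1.

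Kinetochore, centromere and mitotic kinesin genes had the lowest median of the 41 fixed lists, −0.63, with all 34 below 0. The lowest were SKA1 at −0.93, SPC25 at −0.87 and CENPN at −0.85, all of which act where chromosomes attach to the spindle. Among 34 mitotic regulators the median was −0.50. CDKN3, a phosphatase of cyclin-dependent kinases, was at −0.995, and CDK1, the kinase that drives entry into mitosis, at −0.92. ECT2 was the highest at 0.27. Of 38 DNA replication genes, 36 were below 0 with a median of −0.40, and the helicase subunit MCM4 was at −0.81. TK1 had signals of 82628 in mock and 38965 in transfected cells, the brightest of the lower genes.

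The transcription factor FOXM1, which drives mitotic genes, was at −1.10, but its list of 20 E2F, MYB and FOXM1 factors had a median of −0.10, and E2F5 and E2F6 were at 0.66 and 0.61. Outside the lists, NCAPG, a condensin subunit, was at −1.05 and DIAPH3, a formin, at −1.21. SKP2, the substrate receptor that targets the CDK inhibitor p27, was at −1.16.

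These genes were also low on the other PC3 arrays. Those measured on the other 3 arrays had medians of −1.98, −0.28 and −0.75, and each of the 93 measured with miR-99a-3p was lower there than with miR-100-3p. The arrays may share mock RNA, so the lists are given side by side and not as independent repeats.

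Replication-dependent histone genes were lower in 56 of 59 cases, with a median of −0.45 and HIST1H1D (now H1-3) lowest at −1.11. The same genes had medians of −0.27, 0.10 and −0.04 on the other 3 arrays. Probes of near-identical histone genes can bind each other's transcripts, so single members are uncertain. Among homologous recombination and Fanconi genes 23 of 27 were below 0, with a median of −0.38 and RAD51AP1 at −0.94.

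**Figure D2:**
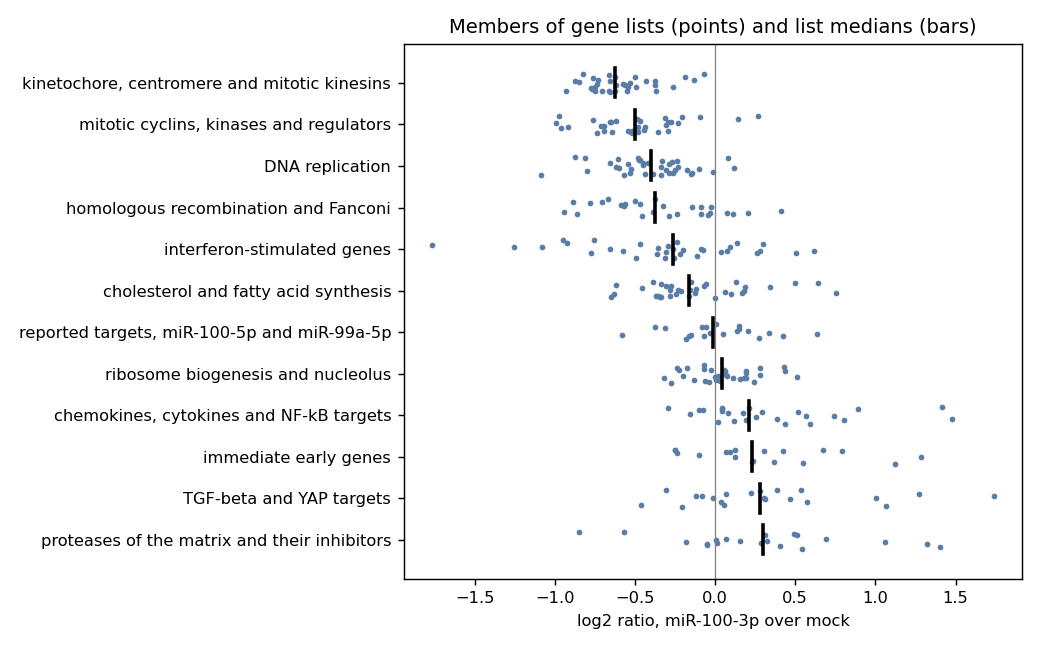
Points are measured members of 12 gene lists placed by log2 ratio of miR-100-3p over mock, and the black bar is the list's median. The 3 cell-division lists lie almost wholly below 0, and the cytokine, immediate early, TGF-beta and protease lists lie mostly above it.

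Interferon-stimulated genes were on the low side. Of 33 measured, 24 were below 0, with a median of −0.26, and IFIH1, OASL and CMPK2 (−1.08) were below −1. The antiviral GTPase MX1 was at −0.95, while IFIT3 was at 0.62. On the other 3 arrays the list's median was −0.16, −0.25 and 1.87. Proteasome subunits had 34 of 37 below 0 with a median of −0.19, and PSMB9, an interferon-inducible subunit, was lowest at −0.98. Cholesterol and fatty acid synthesis genes had a median of −0.16.

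The highest gene was IL37, which encodes an anti-inflammatory member of the interleukin-1 family. Its signal was 81.0 in mock and 662 in transfected cells, a log2 ratio of 3.03 with a spot error of 0.35. It was at 0.28 on the miR-150-5p array and was not above background in both channels with miR-99a-3p or with the 3p strand of miR-150. KRT37, a hair keratin, was at 2.63, with signals of 73.6 and 457. SERPINB3 and SERPINB4, the neighbouring squamous cell carcinoma antigens, were at 2.43 and 2.31 with signals in mock of 22.6 and 25.5. These lie near the floor, as Cy3 signals not called above background reached 23.4. After normexp, loess and Aquantile, the SERPINB3 level was 7.62 with miR-100-3p and 6.62 to 7.06 in the 4 PC3 mock channels. The SERPINB4 level was 7.71 with miR-100-3p and 6.59 to 7.11 in mock. Since their sequences are near-identical the split between them is uncertain. The other 5 measured clade B serpins ran from −0.73 to 0.21.

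TFF2 and TFF1, small secreted trefoil peptides of mucosal surfaces, were among the bright genes of the upper tail. TFF2 had signals of 4612 and 19921 and a ratio of 2.11, and TFF1 had 6725 and 19039 and a ratio of 1.501. TFF3 was at 0.93. TFF2 was at 2.32 on the miR-150-5p array, but at −0.97 with miR-99a-3p and −2.03 with miR-150-3p. The highest measured mucin gene was MUC5AC at 0.496.

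Most cytokine genes were higher than in mock. Of 25 measured chemokine, cytokine and NF-kB target genes, 21 were above 0, with a median of 0.21. IL1B was at 1.48 with signals of 4060.1 and 11317, IL24 at 1.42, CXCL6 at 0.89, IL6 at 0.80 and CXCL8 at 0.74. In the interleukin-1 family, a list added after IL37 had been seen, 7 of 19 genes were measured: IL33 was at 1.40 and IL1RL1, the receptor for IL-33, at 1.60, while IL18 was at −0.08. IL1B was below 0 on the other 3 arrays, at −1.11, −0.37 and −0.97.

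Some growth factors of the TGF-beta superfamily and their antagonists were higher. BMP2, a ligand of bone morphogenetic protein receptors, was at 1.74 and NOG, which binds and blocks BMP2, at 1.67. BMP2 was dim, with signals of 29.0 and 96.8 and a spot error of 0.33, and NOG had signals of 216 and 689. SCUBE3, a secreted protein, was at 1.83, and INHBA, the activin A subunit, at 1.07. In a list of BMP ligands and antagonists added after these values had been seen, 14 of 20 genes were measured, 3 of them below 0, with a median of 0.50 and the antagonist TWSG1 at −0.79. The list of 21 measured TGF-beta and YAP targets had 15 above 0 and a median of 0.28, but 0.08 when the control was the average of all 4 PC3 mocks. Of these genes, 8 lay above all 4 mock channels, a share near the 37.2% of all measured genes. BMP2 was above 0 on all 4 PC3 arrays, at 1.80, 1.30 and 0.71 on the others.

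Matrix proteases had a median of 0.30, with ADAMTS1 at 1.40, ADAM12 at 1.32 and ADAM19 at 1.06, while MMP9 and MMP13 were at −0.85 and −0.57. Among 18 immediate early genes, 14 were above 0, led by EGR2 at 1.28 and DUSP5, a phosphatase of ERK, at 1.12. The EGR2 level did not lie above all 4 PC3 mock channels. Cytosolic ribosomal protein genes were above 0 in 70 of 78 cases, from RPL39L at −0.30 to RPL27A at 1.05. Their median was 0.19, and 0.38 with normexp and loess or 0.35 against the 4 PC3 mock channels. The RPL27A probe was dim, with signals of 66.0 and 136, and its ratio was 0.38 against the 4 PC3 mock channels.

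**Figure D3:**
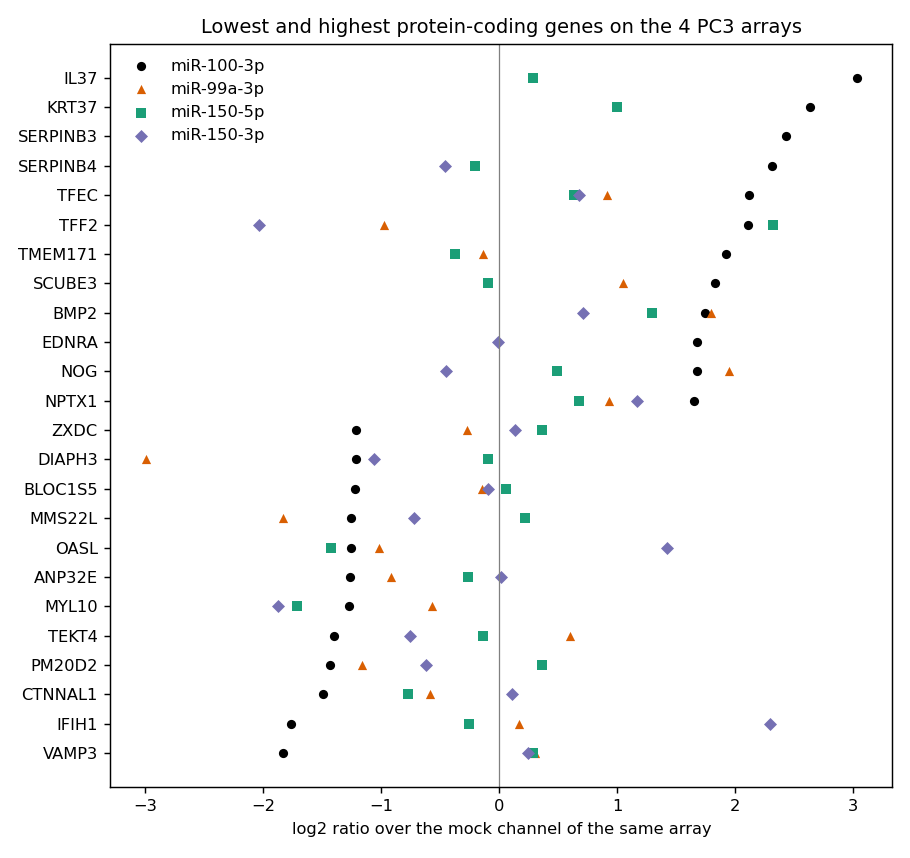
Log2 ratios over mock on the 4 PC3 arrays for the 12 lowest and 12 highest protein-coding genes on the miR-100-3p array (black circles); points are drawn only where a gene was above background in both channels. VAMP3 and BLOC1S5 lie near 0 or above on the other arrays, and TFF2 lies at both extremes.

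Among genes tied to miR-100 itself, the host transcript was lower at its brightest probe and the reported targets of the guide strand had a median near 0. MIR100HG, the transcript that hosts the hairpin, was at −0.41, −0.20 and −0.10 at its 3 probes, the first being the brightest. Each had a spot error of 0.21, and only the first lay further than that from 0. Of 20 measured genes reported as targets of the guide strands miR-100-5p and miR-99a-5p, 10 were below 0, none was past 1 in either direction, and the median was −0.01. The 28 measured PI3K, AKT and mTOR genes had a median of 0.15, with 7 below 0.

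Among transcripts not annotated as protein-coding, the lowest were RPARP-AS1 at −1.47, lnc-TCF19-1 at −1.41 and ZNF833P at −1.23. The highest were an unnamed probe at 2.49 with a spot error of 1.17, TGFB2-AS1, antisense to TGFB2, at 1.59 and LINC00161 at 1.58. Against the 4 PC3 mock channels the falls were smaller, −0.65 for RPARP-AS1 and −0.61 for lnc-TCF19-1. TGFB2-AS1 was at 0.95 and LINC00161 at 1.25 by that control. Measured LINC genes had a median of 0.01.

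For genes dim in 1 channel, the bound used the highest signal that was not called above background in that channel. DHRS9, a retinol dehydrogenase, had the largest bound among higher genes, at least 4.30-fold. CEACAM6, a cell adhesion antigen, was at least 3.55-fold higher and, further down the order, CSF3, the granulocyte colony-stimulating factor, at least 2.53-fold. Among lower genes the largest bound was at least 2.74-fold, for ST7-AS1, and AKR1B10, an aldo-keto reductase, was sixth at 2.21-fold. A bound over 2-fold was found for 18 genes higher and 8 lower.

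The 4 PC3 mock channels were compared to see how far mock itself varied, after normalisation to 1 scale. They fell into pairs: the mock channels of the miR-100-3p and miR-99a-3p arrays differed by a median of 0.06 per gene and those of the miR-150 arrays by 0.05, but between the pairs the difference was 0.11. Single genes differed more. The mock channel of the miR-100-3p array was more than 1 from that of the miR-99a-3p array at 72 genes. From those of the miR-150 arrays it differed by more than 1 at 113 genes (5p) and 123 genes (3p). The normexp and loess ratio of miR-100-3p over mock was below −1 at 20 genes and above 1 at 52. Counts of that order therefore also arose between mock channels of different arrays. The labels do not say whether arrays shared a mock culture. The miR-100-3p level lay below all 4 mock channels for 56 of the 57 lower genes, where 31.7% of all measured genes did, and above all 4 for 151 of the 161 higher genes, where 37.2% did. These genes were chosen on the same ratio, so nothing is read from those counts. The 10 exceptions among the higher genes included ACOXL, EGR2 and TGFB2. The exception among the lower genes was MYL10, whose mock level was 9.46 with miR-100-3p and 8.06 with miR-150-5p. For the cell-division lists 99 of 106 genes lay below all 4 mock channels.

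**Figure D4:**
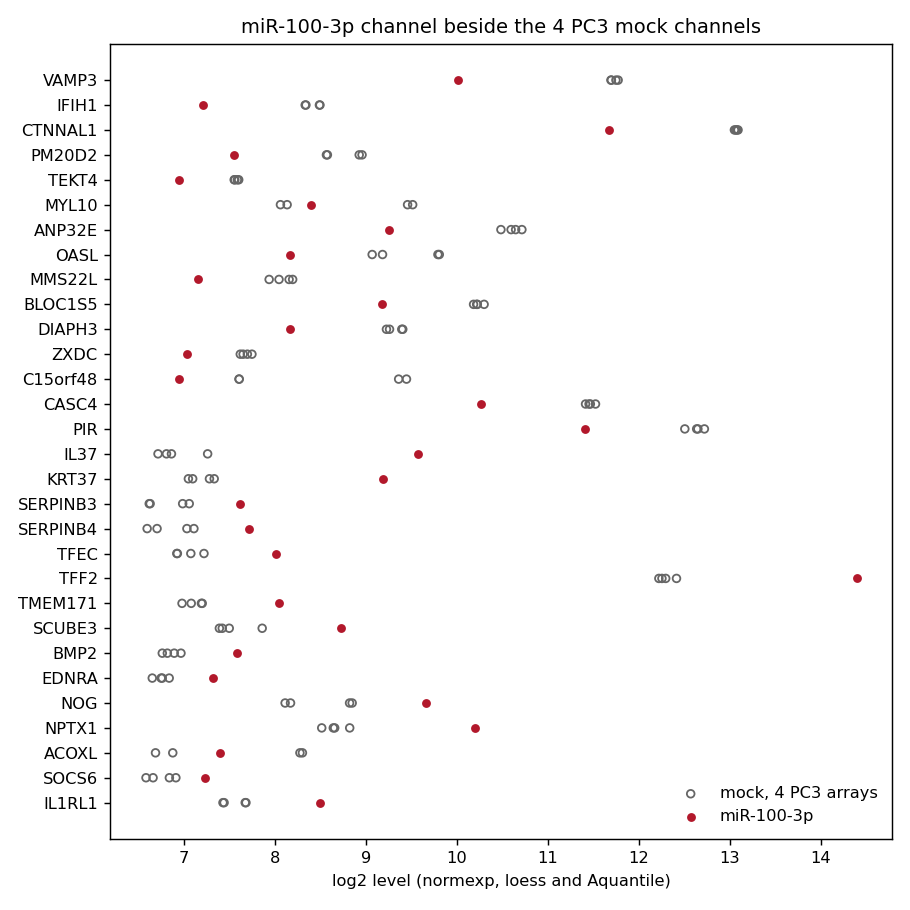
For the 15 lowest and 15 highest protein-coding genes, the log2 level in the miR-100-3p channel (red) is set beside the 4 PC3 mock channels (open circles). The red point lies outside the mock points for VAMP3, CTNNAL1, IL37 and TFF2, and inside them for MYL10 and ACOXL.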

How the data were processed

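Total RNA of miR-100-3p-transfected (Cy5) and mock (Cy3) PC3 cells was hybridised to 1 array, and all 8 arrays of the series were on 1 slide. The authors deposited scanner output of Agilent Feature Extraction 10.7.3.1: per the file headers, processed intensity (signal) is background-subtracted and dye-normalised (linear and lowess), and the log10 ratio is Cy5 over Cy3. The deposited series values equalled those log10 ratios at every spot. Probe coordinates are hg19.

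Here log10 ratios were multiplied by 3.3219. Control and outlier spots were left out, spots of a probe averaged, and each gene represented by its brightest probe over all arrays. Gene names matched RefSeq for 23550 of 43316. Thresholds were ±1. Alternatives included limma 3.58.1 (R 4.3.3) normexp with offset 50 and loess, checked on simulated data, filters, probe rules and the 4 PC3 mock channels as control (normexp, loess, Aquantile). Tables and plots used Python with pandas.

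The text draws on the 15 lowest and highest protein-coding genes, 3 other transcripts at each end, and 3 members at each end of 41 lists; genes outside these, and 6 lists, were chosen after values were seen. The array and the lists were chosen with earlier results of these data known. Single arrays limit precision, and a dye effect cannot be separated without a swap. Values of some genes are not reported here.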

Additional observations from a re-analysis of the deposited data

Results flagged for a closer look

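Of 77 gene lists and leading genes, 4 had 1 PC3 mock channel set apart from the other 3, by a gap that was a large share of the range; chance alone flags about 1 in 20 such groups. The gap was 0.854 of the range for reported targets of miR-100-5p and miR-99a-5p and 0.831 for BMP ligands and antagonists, both highest on the miR-99a-3p array. It was 0.912 for aminoacyl-tRNA synthetases, lowest on the miR-150-3p array, and 0.856 for clade B serpins, lowest on the miR-150-5p array. None involved the mock channel of the miR-100-3p array.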

How the results depend on the processing

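The counts moved with the threshold, the filter, the normalisation and the control. With limma normexp and loess, 20 genes were below −1 and 52 above 1. With genes above background in at least 1 channel, 677 were lower and the lower share of changed genes was 77.2% instead of 26.1%. With no filter, 1149 were lower and 1562 higher, a lower share of 42.4%. The lowest probe of each gene gave a share of 37.3%. Against the mean of the 4 mock channels, 80 genes were higher, with a share of 35.5%. A threshold of 2 left 0 lower and 7 higher genes, and one of 0.58 left 615 and 816. Among the 41 fixed lists, the median moved by more than a spot error for TGF-beta and YAP targets without a filter (0.0602) and for metallothioneins against the 4 mock channels (−0.19). ACOXL turned to −0.14 against the 4 mock channels, and IL6ST to 0.12 at the brightest probe on this array. The causes were not tested. No paired analysis was possible because every group was hybridised once.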
